A study of Mus musculus with 3 samples.

Results

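The cytosolic ribosomal protein and 18S RNA spots of a mouse array were compared between cells that carried NaV1.2CT and cells that carried EGFP. Members were the spots whose gene symbol began with Rpl or Rps followed by a subunit number, together with Rplp0, Rplp1, Rplp2, Rpsa and Rn18s. The rule found 81 of the 21761 probes, with 76 of the 17202 gene symbols on the array. Of these spots, 30 were named for 29 small subunit protein genes and 48 for 46 large subunit protein genes. The 2 Rn18s spots were named for 18S ribosomal RNA. Another spot, with the symbol Rps16, was described as an H/ACA small nucleolar RNA, a short RNA that guides pseudouridine formation in other RNAs. Mitochondrial ribosomal proteins were outside the rule.

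The study used N1E-115, a mouse neuroblastoma line with traits of sympathetic neurons. NaV1.2CT was EGFP fused to the C-terminus of the neuronal sodium channel NaV1.2 (plasmid pEGFP-Nav1.2CTFlag), and the control plasmid pEGFP-C1 gave EGFP alone. Total RNA pooled from 3 dishes was labelled with Alexa647 for NaV1.2CT cells and with Alexa555 for EGFP cells, and both were hybridised to the same spotted array. The labels put 2 arrays at 20 mM glucose (replicates 1 and 2) and 1 array at 5 mM, although low-glucose medium is what the growth protocol gives for each of them. Both plasmids carry EGFP, and transfection with polyethylenimine usually leaves some cells without plasmid. No array had its dyes swapped, so dye and plasmid cannot be told apart at any spot. The labels do not tie the arrays to separate cultures. The p-values therefore cover nothing beyond the spread among these arrays, and with 3 arrays precision is limited.

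The cytosolic ribosome joins a small subunit, built on 18S ribosomal RNA, which reads the mRNA, and a large subunit, built on 28S, 5.8S and 5S ribosomal RNA, which forms the peptide bonds. RNA polymerase I makes 18S and 28S RNA as parts of a single precursor whose spacers are cut away. Ribosomal protein genes are expressed by nearly all growing cells, and their mRNAs begin with a run of pyrimidines that ties their translation to mTOR activity.

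All values are log2 ratios of NaV1.2CT over EGFP, after background correction and loess within print blocks, unless another quantity is named. Values of the arrays are given in the order 20 mM replicate 1, 20 mM replicate 2, 5 mM array. Median raw intensity over all probes was 947, 890 and 1355 in the NaV1.2CT channel and 1172, 1106 and 1706 in the EGFP channel. Of the 20 listed markers of sympathetic neuroblastoma, 19 had a spot, and all 19 lay above the limit set by empty spots on all arrays. A spot above that limit does not show that its named transcript was present, since 5 of 9 fibroblast spots, 9 of 10 glia spots and 4 of 5 blood spots lay above it too. Members were above it at 80 of 81 spots on all arrays, the exception being Rpl30, a large subunit protein. A here is brightness, the log2 intensity averaged over both channels. Members were no brighter than mid-range as a group, with a median A at percentile 55.9 of all probes, and 6 of 81 had an A over 14. High transcript levels are a known trait of these genes, and brightness did not follow the names closely. A gene named below is a spot that carries its name.

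What passed the test was at 4 spots: the mRNA spot of Rps16, both 18S spots and the spot of Rpl36a. At 20 mM glucose, Rps16, 1 of the 18S spots and Rpl36a were higher with NaV1.2CT, and over all arrays the second 18S spot was higher as well. No member was lower. The other 77 members did not pass in any comparison, and their mean log ratios over the 3 arrays ran between -0.14 and 0.15.

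At 20 mM glucose the mean of 2 arrays was set against 0 with limma, with Benjamini-Hochberg adjustment over all probes. Of the 81 members, 3 were higher and 0 were lower, where 0.689% of all probes were higher and 1.42% lower (2.11% in either direction). At an unadjusted p under 0.05, 12 members were higher and 10 lower, and 22.2% of all probes passed in either direction. Over all 3 arrays, 4 members were higher and 0 lower, against 1.17% of all probes higher and 2.68% lower (3.85% in either direction). The unadjusted counts were 13 higher and 9 lower, with 24% of all probes passing in either direction. For the difference, 20 mM minus 5 mM, 0 members were higher and 0 lower by limma, where 0.00919% and 0.0184% of all probes were (0.0276% in either direction). There 6 members had an unadjusted p under 0.05, 4 higher and 2 lower, and 7.5% of all probes did. The lone 5 mM array was assumed to vary like the others in that comparison, and since the files number it in another series of arrays, glucose cannot be told apart from array series.

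**Figure D1:**
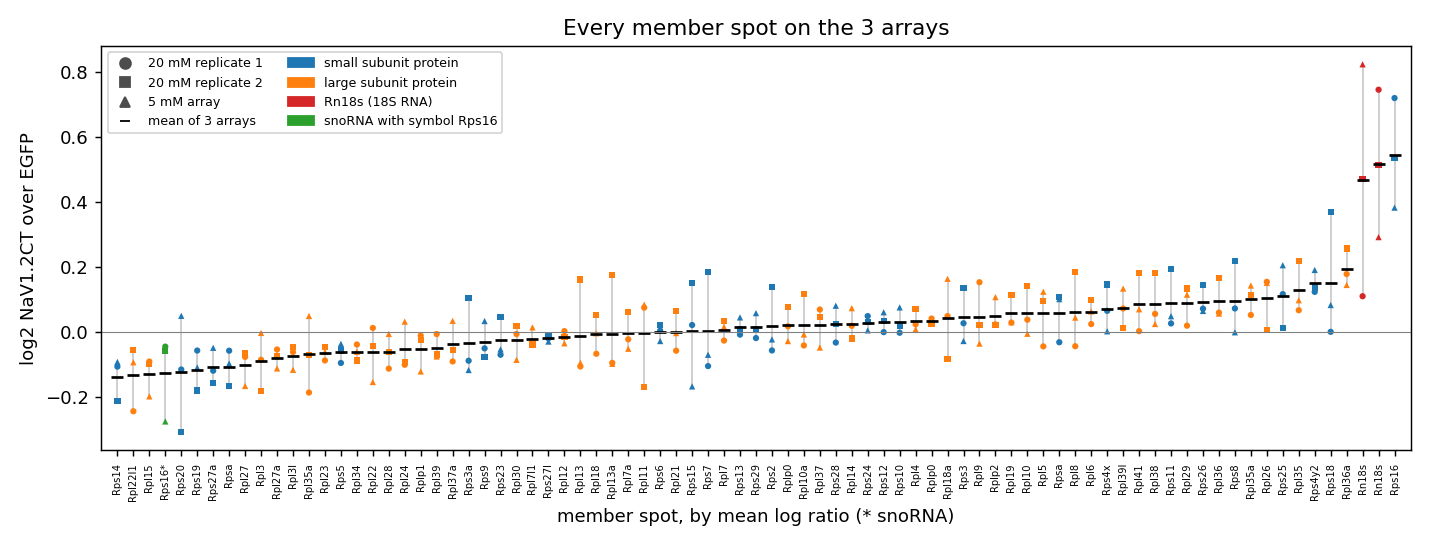
Log2 ratio of NaV1.2CT over EGFP (vertical axis) of the 81 member spots, ordered by their mean over 3 arrays (horizontal axis). Marker shapes are the arrays, colours the kind of spot and short bars the means; the Rps16 mRNA spot and both Rn18s spots stand at the right, at means of 0.55, 0.52 and 0.47, and the other 78 lie between -0.14 and 0.19.

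Rps16 encodes a small subunit protein whose tail reaches toward the decoding site. Its mRNA spot had log2 ratios of 0.72, 0.53 and 0.38, above 0 on every array and lowest on the 5 mM array. The mean was 0.55 (SD 0.17, n = 3), a 1.46-fold change, with a limma adjusted p of 0.00664. At 20 mM alone the mean was 0.63 (SD 0.13, n = 2, limma adjusted p = 0.00614). The difference between glucose levels was 0.25 and did not pass (limma adjusted p = 0.616). Raw intensity was 64960, 57923 and 64528 in the NaV1.2CT channel, against 30854, 34173 and 36666 in the EGFP channel. The NaV1.2CT readings of 20 mM replicate 1 and the 5 mM array lay at over 90% of the scanner limit of 65535. That of replicate 2 lay below this, and those of EGFP lay far lower on each array. Pixels at the limit may hold these ratios down, and this was not tested.

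The symbol Rps16 also stood on the spot of the small nucleolar RNA, whose gene lies within the span of Rps16 in the RefSeq annotation. That spot had -0.046, -0.059 and -0.28, below 0 on every array and lowest at 5 mM. Its mean of -0.13 (SD 0.13, n = 3) did not pass (limma adjusted p = 0.154). The mRNA spot and the small nucleolar RNA spot thus lay on opposite sides of 0 on every array, and raw intensity of the small nucleolar RNA spot was 336, 240 and 536 in the NaV1.2CT channel, against 484, 354 and 861 in the EGFP channel.

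The first of the 18S spots is described as partial external transcribed spacer, a B2 repeat element and partial 18S. Its sequence thus reaches into the precursor, and its signal need not come from 18S alone. Its log2 ratios were 0.75, 0.51 and 0.29, above 0 on all arrays and lowest on the 5 mM array. The mean was 0.52 (SD 0.23, n = 3, limma adjusted p = 0.0133), and at 20 mM 0.63 (SD 0.16, n = 2, limma adjusted p = 0.00673). Raw intensity was 57058, 50773 and 59790 in NaV1.2CT cells, against 26820, 27953 and 34304 in EGFP cells.

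The second of the 18S spots is described as the 3′ end of 18S. Its log2 ratios were 0.11, 0.47 and 0.82, again above 0 on all arrays but highest on the 5 mM array. The mean was 0.47 (SD 0.36, n = 3, limma adjusted p = 0.0435), and it did not pass without the 5 mM array (0.29, adjusted p = 0.0795) nor without 20 mM replicate 2 (0.47, adjusted p = 0.0565). Raw intensity was 56677, 63532 and 61963 in NaV1.2CT cells, against 37790, 36222 and 29147 in EGFP cells. The 18S spots thus shared a direction but ranked the arrays in opposite order. The SD of raw NaV1.2CT intensity within the spot was 13886, 14866 and 5297 at the spacer spot. At the 3′ end spot it was 14712, 5580 and 8704. Some pixels may thus have been at the scanner limit, which leaves the size and array order of these ratios uncertain, and this was not tested. The difference, 20 mM minus 5 mM, was 0.34 at the spacer spot and -0.53 at the 3′ end spot, and neither passed (limma adjusted p = 0.565 and 0.438).

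Ribosomal RNA outside the rule was looked up after the member values had been seen. A spot described as the 5′ end of 28S RNA, which shares its precursor with 18S, was saturated on both 20 mM arrays. Its NaV1.2CT channel was at the scanner limit of 65535 there and at 45682 on the 5 mM array, with 57089, 41263 and 23178 in the EGFP channel. The scanner limit thus caps the NaV1.2CT reading behind the log2 ratios of the 20 mM arrays, 0.0021 and 0.43, and their true size is not known. The 5 mM array had 0.81. Likeness was measured as the root mean square difference over the 3 arrays among 21760 other probes. By this measure the Rps16 mRNA spot was the nearest to the 18S spacer spot (0.0559). Next came a probe without a gene symbol (0.115) and 1700128I11Rik (0.162), each also near the scanner limit. The 18S 3′ end spot was nearest to the 28S spot (0.0660) and then to Timp1 (0.179). What lies behind these likenesses was not tested. The 3 spots of mitochondrial 16S ribosomal RNA, which is encoded in mitochondrial DNA and not made by RNA polymerase I, had means of -0.050, 0.044 and -0.049.

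**Figure D2:**
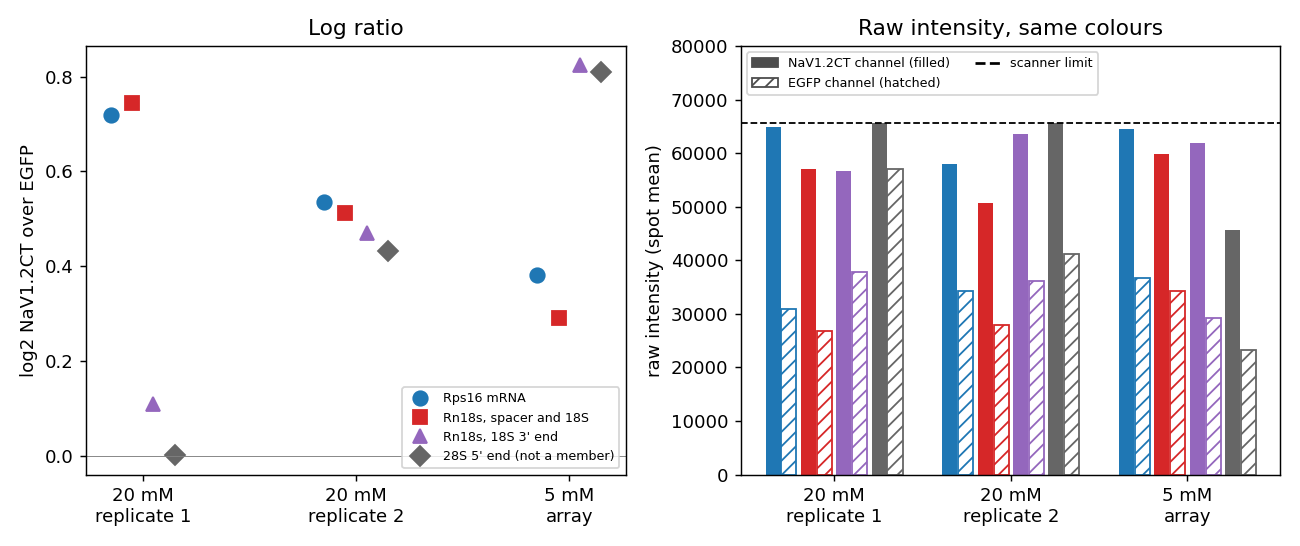
Left, log2 ratio of NaV1.2CT over EGFP (vertical axis) on the 3 arrays (horizontal axis) for the Rps16 mRNA spot, both Rn18s spots and the 28S spot. Right, raw intensity of the same spots in the NaV1.2CT channel (filled bars) and the EGFP channel (hatched bars), with the scanner limit of 65535 dashed. The true size of the 28S ratios on the 20 mM arrays is not known, since its filled bars reach the limit there. Filled bars of the member spots lie between 50773 and 64960 and their hatched bars between 26820 and 37790.

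Rpl36a, a protein of the large subunit near the exit site for tRNA, stood apart from these in brightness. Its spot had log2 ratios of 0.18, 0.26 and 0.14, above 0 on every array. The mean was 0.19 (SD 0.058, n = 3), a 1.14-fold change with a limma adjusted p of 0.0325, and 0.22 at 20 mM (SD 0.055, n = 2, limma adjusted p = 0.0457). Raw intensity was low, at 260, 251 and 230 in NaV1.2CT cells, against 332, 267 and 282 in EGFP cells. The raw EGFP reading was the higher on each array, so the sign of this ratio rests on the normalization, and with median centring alone the mean was -0.0071. It passed without the 5 mM array, but not without 20 mM replicate 1 (0.20, limma adjusted p = 0.0529) or replicate 2 (0.16, adjusted p = 0.0686). Rpl36al, a near copy of this gene just outside the naming rule, had a mean of 0.049 (SD 0.028, n = 3) and did not pass.

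Promoters of the members were searched for sequence motifs, which the rule had not used. Windows of 300 bases from RefSeq (GRCm38.p6), with 250 before and 50 after the gene start, were found for 58 of the 75 protein genes. Motifs were searched on both strands, and no motif overlapped another in these 58 windows. CCGGAAG, the core bound by ETS factors, was in 23 of 58 member windows (39.7%) and 9.12% of the 27025 gene windows. CTCTTTC, a string of pyrimidines, was in 15 of 58 (25.9%) and in 8.01%. A match anywhere in a window need not be the pyrimidine run at the start of the mRNA. AAGATGG, the core of the YY1 motif, was in 7 of 58 (12.1%) and in 6.48%, and TATAAA in 6 of 58 (10.3%) and in 14.2%. Over 3 arrays, 24 spots of genes with CCGGAAG had a median of 0.040 and 37 spots of genes without it had -0.0052. The medians with and without CTCTTTC were 0.026 (16 spots) and 0.019 (45 spots). With and without TATAAA they were 0.021 (7 spots) and 0.0080 (54 spots). AAGATGG went the other way, at -0.0016 (8 spots) and 0.021 (53 spots). Neither these differences nor the shares of windows were tested.

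The 90 bases before the gene start are shown for the members that were called, Rps16 and Rpl36a, and for Rpl15, which stood at the low end. Capitals mark a searched motif, found in these bases only in Rpl15 (CCGGAAG).
Rps16, chr7:28350599-28350688, + strand: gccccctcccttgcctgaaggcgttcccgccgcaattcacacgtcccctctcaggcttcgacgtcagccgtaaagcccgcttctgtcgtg
Rpl36a, chrX:134585564-134585653, + strand: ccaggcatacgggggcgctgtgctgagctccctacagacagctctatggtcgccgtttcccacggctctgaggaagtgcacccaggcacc
Rpl15, chr14:18270987-18271076, - strand: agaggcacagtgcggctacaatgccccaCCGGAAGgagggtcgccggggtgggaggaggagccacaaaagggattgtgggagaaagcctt
In the whole windows, Rps16 held AAGATGG and Rpl36a held CTCTTTC and TATAAA.

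Log ratios on these arrays moved with brightness, so each member was also set against the 400 non-member probes nearest in A on the same array. The Rps16 mRNA spot lay above the median of these by 0.63, 0.45 and 0.28, at percentiles 100, 100 and 94.5. The spacer spot lay above it by 0.65, 0.43 and 0.19, at percentiles 100, 99.5 and 90. The 18S 3′ end spot lay above it by 0.017, 0.39 and 0.72, at percentiles 54, 99 and 100. The 18S 3′ end spot on 20 mM replicate 1 was thus level with its neighbours, and the others stood above most of theirs. These spots are near the bright end, where most of the 400 are dimmer. With the 100 nearest probes the mean over arrays was 0.35 for Rps16, 0.37 for the spacer spot and 0.28 for the 3′ end spot, against 0.45, 0.42 and 0.37 with 400. Rpl36a lay 0.19, 0.26 and 0.16 above spots of its brightness, at percentiles 95.5, 99.25 and 97.25.

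Spots near the scanner limit were examined after the data had been seen. A raw channel mean of at least 90% of the limit on any array was found at 48 probes, 0.221% of all, and 3 of them were members, namely the Rps16 mRNA spot and both 18S spots. All 48 reached it in the NaV1.2CT channel, and no EGFP reading did (the highest was 57089, at the 28S spot). That channel is the numerator of the ratio, so this choice of probes itself favours ratios above 0. The counts and ranks among them are descriptions, not a test. Of the other 45, 44 had a mean log ratio above 0 and 32 were called higher over all arrays, with a median of 0.28 and a range between -0.012 and 0.49. The 3 members, at 0.55, 0.52 and 0.47, lay above that median, with the Rps16 and spacer spots past the top of the range. Apart from the 28S spot, none of the 45 was among the ribosomal RNA spots that were looked up. Some of the 45 have no gene symbol, and their sequences were not checked. The part that brightness has in the 3 member values was not tested. Without all 48, the one member that passed was Rpl36a, higher, at 20 mM and over all arrays.

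Other bright members did not share these values, but they were dimmer than the Rps16 mRNA and 18S spots. Those had an A of 15.49, 15.31 (spacer) and 15.48 (3′ end), and the median of non-member probes rose with A there on every array. On 20 mM replicate 1 this median was 0.026 around an A of 14.75, 0.13 around 15.25 and 0.24 around 15.75. Rps25, a small subunit protein, and the second Rpsa spot, both picked here for their brightness after their values were seen, had an A of 15.04 and 15.03. Rps25 had 0.12, 0.011 and 0.20, and Rpsa had -0.033, 0.11 and 0.10. Against spots of the same brightness Rps25 lay at 0.035, -0.040 and 0.17 and Rpsa at -0.071, 0.046 and 0.0096, so neither stood apart on all arrays. Rpsa is the ribosomal protein that has also been described as a laminin receptor. Its first spot, at an A of 10.98, had -0.059, -0.17 and -0.098, so that both spots of this gene disagreed in sign on 20 mM replicate 2 and at 5 mM.

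**Figure D3:**
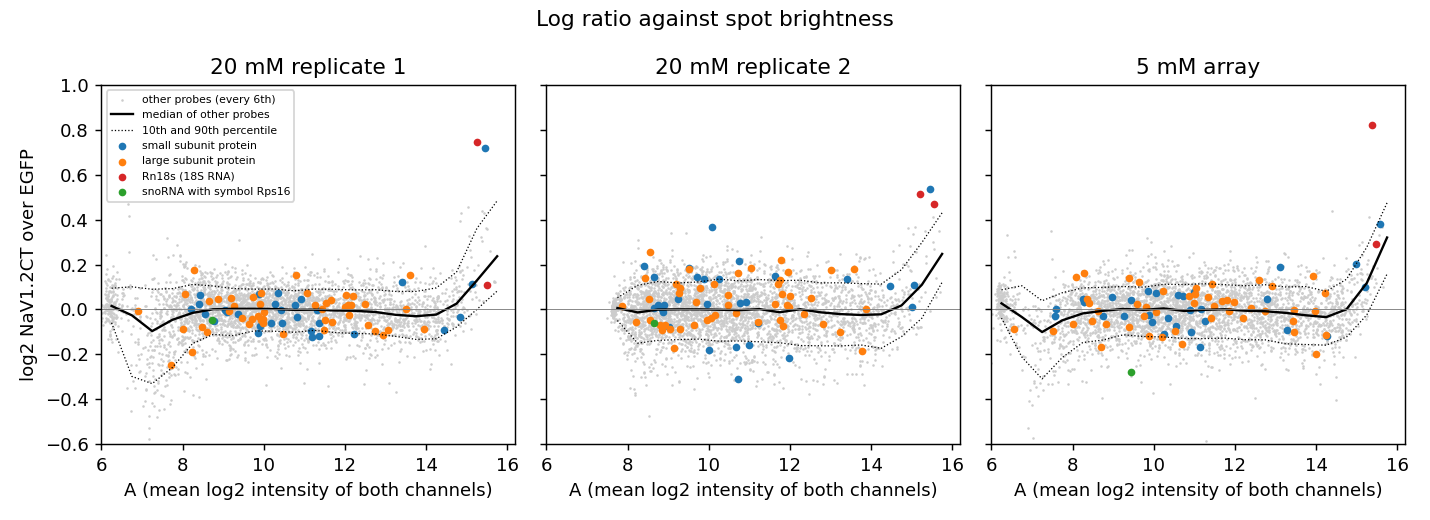
Log2 ratio of NaV1.2CT over EGFP (vertical axis) against A, the brightness on the log2 scale (horizontal axis), on each array. Grey points are every 6th other probe, the solid line their median and the dotted lines their 10th and 90th percentiles; coloured points are members, most of which lie within the dotted lines at an A under 14, while the Rps16 mRNA and Rn18s points rise above them at the right edge, with exceptions at 20 mM replicate 1 and 5 mM.

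The small and large subunit proteins were then described as groups, with no test. The 30 small subunit spots had medians of -0.015, 0.030 and 0.0023, and the 48 large subunit spots had -0.0075, 0.020 and 0.0013. The medians of all probes were -0.0047, -0.0011 and -0.0042. Above 0 were 11, 22 and 16 of the 30 small subunit spots and 23, 28 and 24 of the 48 large subunit spots, where 47.5%, 49.5% and 48.0% of all probes were. Neither subunit kept its side of 0 over the arrays, and both medians were highest on 20 mM replicate 2. After the median of spots of the same brightness was taken off, the small subunit had -0.014, 0.035 and 0.026 and the large subunit had -0.0047, 0.031 and 0.011.

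**Figure D4:**
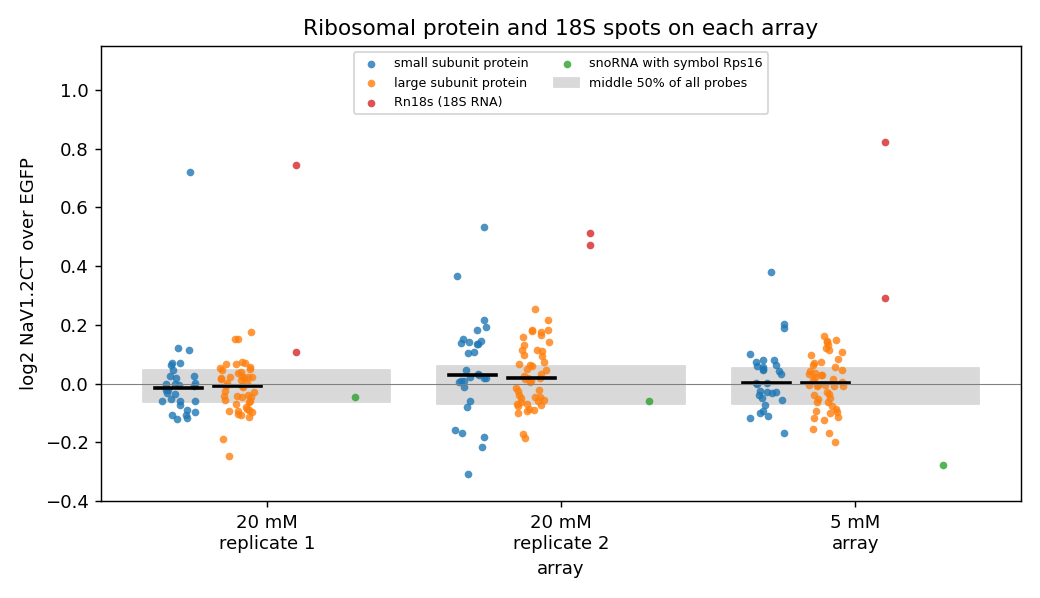
Log2 ratio of NaV1.2CT over EGFP (vertical axis) of each member spot on the 3 arrays (horizontal axis), by kind of spot, with black bars at the median of each subunit and grey bands for the middle 50% of all probes. The subunit medians lie between -0.015 and 0.030, within the grey band on every array, while Rn18s points reach 0.82.

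Member by member, 23 of 81 spots were above 0 on every array and 18 were below 0 on every array, where 21.8% and 25.1% of all probes were. Of the small subunit spots 7 were above on all arrays and 6 below, and of the large subunit spots 14 and 11. The spread over arrays was larger than the size of the mean in 45 of the 81 members, and in 12279 of all 21761 probes. The median SD over 3 arrays was 0.061 among members and 0.058 among all probes. A mean past 0.2 in size was found only at the Rps16 mRNA spot and both 18S spots, where 2.22% of all probes had one. On single arrays, 2, 7 and 4 members lay at 0.2 or higher, where 1.31%, 2.46% and 1.56% of all probes did. At -0.2 or lower lay 1, 2 and 1 members, where 3.35%, 3.79% and 3.76% of all probes did. The third value of each is the 5 mM array, which has no replicate.

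Across the 81 members, log ratios of the 20 mM replicates had a Pearson correlation of 0.64 and a Spearman correlation of 0.50. The 5 mM array correlated with replicate 1 at 0.54 and 0.57 and with replicate 2 at 0.55 and 0.35. Among the 21680 other probes the Pearson values were 0.48, 0.46 and 0.32 in the same order. Spots share their position and brightness on all arrays, so these are descriptions.

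Among the small subunit proteins, Rps14, which lines the mRNA path on the platform of the subunit, had the lowest mean of all members. Its log2 ratios were -0.11, -0.21 and -0.093, below 0 on all arrays, with a mean of -0.14 (SD 0.066, n = 3, limma adjusted p = 0.0746). Rps27a, made as a fusion with ubiquitin, had -0.12, -0.16 and -0.050 and did not pass (limma adjusted p = 0.117 over all arrays). Rps20, a protein of the head of the subunit, had -0.12, -0.31 and 0.049, so the 20 mM arrays lay below 0 and the 5 mM array above it.

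Rps18, also of the head, had -0.00074, 0.37 and 0.082, so that its mean of 0.15 (SD 0.19, n = 3, limma adjusted p = 0.184) came mostly from 20 mM replicate 2. Rps6, the substrate of S6 kinase, had 0.0032, 0.021 and -0.029, which stayed near 0 on each array. Its spot was dim, with a mean raw intensity of 234 in NaV1.2CT cells and 284 in EGFP cells. The spot of Rps4y2, a copy of Rps4 that the RefSeq table lists as the transcribed pseudogene Rps4l, lay above 0 on each array. Chosen after its values were seen, it had 0.12, 0.14 and 0.19, and a limma adjusted p of 0.0503 over all arrays.

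Among the large subunit proteins, Rpl15 had the lowest mean apart from Rpl22l1, which is described with the paralogs. Rpl15 had -0.092, -0.099 and -0.20, below 0 on all arrays and lowest at 5 mM, with a mean of -0.13 (SD 0.060, n = 3, limma adjusted p = 0.0818). Rpl3, which reaches the peptidyl transferase centre, had -0.087, -0.18 and -0.0041. Its direction turned with median centring, where its mean was 0.25 over all arrays and 0.26 at 20 mM. Rpl5 and Rpl11, which bind 5S RNA and can inhibit the p53 ligase Mdm2 when free of the ribosome, are members named here for that role. Rpl5 had -0.046, 0.094 and 0.12, and Rpl11 had 0.074, -0.17 and 0.083, so neither held 1 sign.

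Repeated spots showed how far a name fixed a value. Rplp0, the base of the ribosomal stalk that recruits elongation factors, had 0.040, 0.025 and 0.036 at 1 spot and 0.016, 0.075 and -0.029 at the other, all close to 0. Rpl35a, a large subunit protein, had 0.051, 0.11 and 0.14 at 1 spot and -0.19, -0.071 and 0.048 at the other. Its spots thus lay on opposite sides of 0 on both 20 mM arrays. The sign of the spot above 0 there rests on the normalization, since its mean over all arrays was -0.099 with median centring.

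Paralogs with tissue-variant expression formed a small list of their own. Of 5 spots (Rpl22l1, Rpl3l, Rpl7l1, Rps27l and Rpl39l), 0 passed by limma at an adjusted p of 0.05 and 1 had an unadjusted p under 0.05 over all arrays, where 24% of all probes did. Rpl22l1, a paralog of Rpl22 that can replace it, had -0.25, -0.057 and -0.094 and a limma adjusted p of 0.11. Rpl3l, which is known from striated muscle, averaged -0.076 and Rpl39l, known from testis, 0.072. Fau (Rps30 fused to a ubiquitin-like protein), just outside the naming rule, was as close to 0, at 0.052, and did not pass.

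Position on the array moved with the member values on 20 mM replicate 2. Of the 81 members, 38 were printed in row 2, columns 5 to 12, of the print blocks. These 38 had medians of -0.0098, 0.11 and -0.0044, and on replicate 2, 32 of them were above 0. The 342 other probes in the same positions had medians of -0.00075, 0.030 and 0.0044, with 59.1% above 0 on replicate 2. The 16 members printed in row 12, columns 5 to 16, had -0.025, -0.071 and 0.037, and the 552 others there had -0.019, -0.056 and -0.025. On replicate 2, neighbours in print thus lay on the same side of 0 as the members among them in both places. In the 2 smaller groups they lay on opposite sides on replicate 2. The 9 members in row 5, columns 19 to 22, had a median of -0.016 and the others there 0.019, and the 5 members in row 11, columns 1 and 2, had 0.0044 and the others there -0.0058. The part of print position in the member values was not tested. Centred on the median of their print positions, the small subunit had medians of -0.013, 0.054 and 0.029 and the large subunit -0.00076, 0.011 and 0.023.

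**Figure D5:**
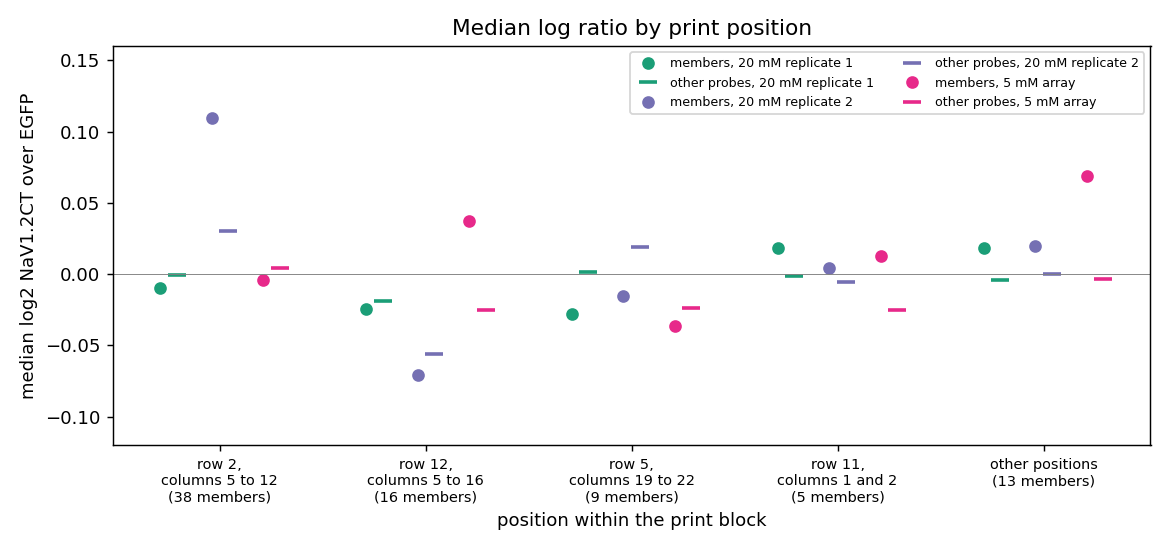
Median log2 ratio of NaV1.2CT over EGFP (vertical axis) of the members (circles) and of the other probes (bars) by position within the print block (horizontal axis), with arrays in colours. On 20 mM replicate 2 both lie above 0 in row 2, columns 5 to 12, at 0.11 and 0.030, and both below 0 in row 12, columns 5 to 16, at -0.071 and -0.056.

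The authors' deposited z-score, whose sign mostly matched that of the log2 ratios, was read beside these values. It did not always follow which raw channel was the brighter. On 20 mM replicate 1 Rpl36a had a score of 1.94, with raw 260 in NaV1.2CT cells against 332 in EGFP cells. For the Rps16 mRNA spot it was 2.92, 1.22 and 1.39, and for the spacer spot 4.36, 2.86 and 0.73. For the 18S 3′ end spot it was -0.63, 1.69 and 3.45, which keeps the array order of the log ratios but lies below 0 on 20 mM replicate 1. At 2 or higher were 3 members on each array, where 1.92%, 1.9% and 1.85% of all scored probes were, and 0, 2 and 2 were at -2 or lower, where 2.64%, 2.41% and 2.87% were. A score was given for 81, 50 and 81 members.

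The machinery around the ribosome was described from lists of its genes. RNA polymerase I and its factors had 21 spots, with a median of -0.0076 over all arrays, and 0 passed by limma in any comparison. At an unadjusted p under 0.05 over all arrays were 2 of the 21, where 24% of all probes were, and the same share stands behind each such count of the other lists. Ribosome assembly factors had 36 spots, a median of 0.0061 and 0 that passed, with 10 at an unadjusted p under 0.05. They ran between -0.15 for Nop58, a core protein of box C/D small nucleolar ribonucleoproteins, and 0.15 for Noc2l, a nucleolar protein whose spot is among the 48 near the scanner limit.

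Translation factors and other mRNAs with a 5′ pyrimidine run had 23 spots, a median of 0.020 and 0 that passed by limma, with 6 at an unadjusted p under 0.05. They ran between -0.11 for Gnb2l1, the scaffold protein Rack1 of the small subunit, and 0.16 for Eef1a1, which delivers aminoacyl-tRNA. The mTOR and S6 kinase regulators had 12 spots, a median of -0.0024 and 0 that passed, with 5 at an unadjusted p under 0.05. All of these medians lay close to that of all probes, -0.0034.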

How the data were processed

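Raw and background intensity per spot and channel were deposited by the authors as means, per the file headers. The deposited ratio is that of EGFP over NaV1.2CT net intensity, per the file headers. The deposited score is a z-score per spot that the authors computed, and its sign did not always follow which raw channel was the brighter. How it was computed, the scanner and the quantification software are not given in the sources used here. Of 23232 spots per array (48 print blocks), 231 held a GAPDH control and 1235 nothing. limma 3.58.1 in R 4.3.3 corrected background by normexp (offset 50, which understates changes of dim spots) and normalized by loess within print blocks, with empty spots at weight 0. Spots of 1 accession were averaged. lmFit and eBayes gave two-sided p-values, adjusted by Benjamini-Hochberg over all 21761 probes at a threshold of 0.05. The deposited intensity carries no depth; the empty limit was the 95th percentile of raw minus background in empty spots. The tests were tested on simulated data. Members and lists were chosen with earlier results of these data known. Members were named in the text where they passed, had the 5 highest or lowest means over all arrays or at 20 mM, the 3 highest or lowest A or values against spots of the same brightness, or repeated spots; others are stated as chosen after their values were seen or for their role. Gene names came from the files, and RefSeq (GRCm38.p6) matched 57 member spots by accession, 21 by symbol and 1 by synonym. Alternatives covered background correction, normalization, filters, trend, array left out, near-limit spots and print position.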

Additional observations from a re-analysis of the deposited data

How the results depend on the processing

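The counts of called members depended on the normalization. At 20 mM, where 3 were higher and 0 lower, loess over the whole array gave 20 and 10 (3268 and 4380 of all probes) and median centring 19 and 12 (4012 and 4088). Plain background subtraction, loess on the authors' net intensities and the authors' deposited ratio gave 0 higher each, with 10, 18 and 31 of all probes higher. Without spots near the scanner limit 1 was higher, and with centring on the print position 7 were, both chosen after seeing the data. A second loess over intensity gave 3 higher and 1 lower (322 and 641 of all probes). A restriction to probes above the empty limit gave 4 and 1 (254 and 536). Over all arrays these settings gave 5 higher each (290 and 382 of all probes). Over all arrays, where 4 were higher and 0 lower, the whole-array loess gave 19 and 11 (3045 and 4559 of all probes), median centring 18 and 9 (4280 and 4502) and an unadjusted p 13 and 9 (2027 and 3190). The same 3 settings with other background or net values gave 0 higher, as for all probes, so these zeros say nothing about members; without near-limit spots 1 was higher. With 1 array left out the higher count ran between 2 and 4 (2 without 20 mM replicate 2) and the lower count stayed at 0. Without 20 mM replicate 1 it was 4 higher although Rpl36a did not pass there, so a member outside the 4 main calls did. The difference between glucose levels gave 0 and 0 in every setting run. The large subunit median of 0.0030 became 0.036 with whole-array loess and 0.045 with median centring, and ran between -0.010 and 0.023 with 1 array left out. The median of both Rn18s spots, 0.49, became 1.14 with median centring, 0.43 with loess on net intensities and 0.42 with the deposited ratio. The median against spots of the same brightness, 0.014, became 0.036 with either whole-array loess or median centring. With 1 array left out it was 0.030 without 20 mM replicate 1, -0.0042 without replicate 2 and 0.022 without the 5 mM array. Directions turned with median centring for Rpl36a over all arrays (-0.0071) and Rpl3 (0.26 at 20 mM, 0.25 over all arrays). They also turned for the Rpl35a spot that lay above 0 (-0.098 at 20 mM, -0.099 over all arrays). With whole-array loess that Rpl35a spot had -0.030 at 20 mM and -0.023 over all arrays. The cause of these moves was not tested. The Rps16 mRNA spot and the 18S spacer spot passed over all arrays with any 1 array left out.

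With the 3 settings that gave 0, the Rps16, 18S and Rpl36a ratios stayed above 0, with adjusted p between 0.0553 and 0.287. No paired analysis was possible because the 5 mM group has 1 array, so the glucose groups share fewer than 2 replicate numbers. Counts at 20 mM with 1 of 2 arrays left out have no residual degrees of freedom, and the intensity trend was not run for the difference. Dim spots such as Rpl30, below the empty limit on all arrays, and readings near the scanner limit bound what these arrays can show.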

Other observations

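Mitochondrial ribosomal proteins, which translate the mRNAs of mitochondrial DNA and lie outside the cytosolic set, had 67 spots and a median of 0.022 over all arrays, with 39 above 0. By limma, 3 were higher and 0 lower at 20 mM, where 0.689% and 1.42% of all probes were, and 3 were higher and 3 lower over all arrays, where 1.17% and 2.68% were. Mrpl40 had 0.43, 0.28 and 0.17 on 20 mM replicate 1, replicate 2 and the 5 mM array, with a mean of 0.30 (SD 0.13, n = 3, limma adjusted p = 0.0225). Mrpl43 had 0.21, 0.31 and 0.34, with a mean of 0.28 (SD 0.067, n = 3, limma adjusted p = 0.0133), and its NaV1.2CT channel lay near the scanner limit on 20 mM replicate 1 and at 5 mM. Mrps15, at mid-range brightness, had 0.35, 0.17 and 0.19 and a mean of 0.24 (limma adjusted p = 0.0291). Lower on all arrays were Mrpl50 at a mean of -0.18, Mrpl11 at -0.18 and Mrpl44 at -0.16, with limma adjusted p between 0.0370 and 0.0443.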
